A study of Mus musculus with 2 samples.

Results

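The genes described are those of motile cilia, namely axonemal dyneins, radial spoke, central pair and doublet proteins, and intraflagellar transport (IFT) proteins. They were taken by symbol: every symbol that begins with Dnah, Dnai, Cfap, Tekt, Rsph, Spag or Ift followed by a digit, plus Foxj1, Tmem212, Dynlrb2 and Ccdc153. Of 32285 features in the files, 94 symbols matched, and 78 of them had at least 50 counts in both lung sections together. All 78 were counted in both sections. No symbol beginning with Dnai was found, and the intermediate chains of the outer dynein arm carry the older names Dnaic1 and Dnaic2 in the files. Of the 16 symbols below the minimum, 6 had no count, and Dnah7b (33 counts), Cfap300 (21) and Spag4 (21) lay nearest to it. Just inside it were Rsph3a (53 counts), Dnah3 (57) and Cfap52 (59).

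Gene expression was measured on Visium slides, in which RNA from a fresh-frozen tissue section is caught by barcoded spots, each wide enough to hold several cells. One capture area held lung of a mouse with no treatment, called the control section. The other held lung of a mouse carrying metastases of 4T1 cells, a mammary carcinoma cell line, injected into the mammary fat pad (m.f.p.), called the metastatic section. The mice were female Balb/c, 6 to 8 weeks old at the injection of 1000000 cells, and lungs were taken 21 to 23 days later. The age and the day of the control mouse were not given separately in the sources used here. With 1 section per condition, mouse, section, library and condition cannot be told apart, so no test between conditions was made and no p-value over spots is given. All intervals are 95% intervals that cover counting error only.

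Motile cilia beat by the sliding of doublet microtubules against each other. Outer and inner dynein arms drive the sliding, and radial spokes and the central pair regulate it. In the lung they are carried by the multiciliated cells of the conducting airways, which stand among secretory cells and move mucus. Foxj1 is the forkhead transcription factor required for their motile ciliogenesis, and RFX factors act beside it on many ciliary genes. IFT trains, which hold an IFT-A and an IFT-B complex, build cilia of every kind. They therefore also serve the non-motile primary cilium of many other cell types.

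Because most of these genes were counted in the same spots, promoters are shown for 4 of them: those with the most copies of an RFX motif among the genes following Foxj1 (Cfap161 and Cfap44), the single such gene with a forkhead motif (Cfap43), and a gene not following Foxj1 that held both motifs (Cfap20). Each run is the 250 bases before 1 annotated start of the gene, 5′ to 3′ on the strand of the gene, from RefSeq on GRCm38.p6. Capitals mark the RFX motif GTTGCCA, which reads TGGCAAC on the other strand, and the forkhead motif TGTTTAC, which reads GTAAACA on the other strand. The positions were chr7:83794840-83795089 (minus strand) for Cfap161, chr16:44394549-44394798 (plus) for Cfap44, chr19:47837362-47837611 (minus) for Cfap43 and chr8:95434870-95435119 (minus) for Cfap20.
Cfap161: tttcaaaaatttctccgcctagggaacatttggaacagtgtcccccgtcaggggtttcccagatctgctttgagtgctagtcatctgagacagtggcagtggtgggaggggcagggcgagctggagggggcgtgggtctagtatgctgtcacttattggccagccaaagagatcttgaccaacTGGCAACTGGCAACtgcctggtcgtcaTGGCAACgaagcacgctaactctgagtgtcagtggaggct
Cfap44: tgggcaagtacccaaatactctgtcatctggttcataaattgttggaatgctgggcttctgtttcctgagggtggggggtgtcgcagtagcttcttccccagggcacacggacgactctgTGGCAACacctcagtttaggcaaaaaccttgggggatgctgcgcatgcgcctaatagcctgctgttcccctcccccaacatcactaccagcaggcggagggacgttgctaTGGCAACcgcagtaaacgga
Cfap43: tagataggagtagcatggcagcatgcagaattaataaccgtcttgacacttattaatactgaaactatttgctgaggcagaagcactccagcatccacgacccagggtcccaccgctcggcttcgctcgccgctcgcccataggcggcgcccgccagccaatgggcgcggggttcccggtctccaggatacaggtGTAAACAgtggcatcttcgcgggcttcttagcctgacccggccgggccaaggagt
Cfap20: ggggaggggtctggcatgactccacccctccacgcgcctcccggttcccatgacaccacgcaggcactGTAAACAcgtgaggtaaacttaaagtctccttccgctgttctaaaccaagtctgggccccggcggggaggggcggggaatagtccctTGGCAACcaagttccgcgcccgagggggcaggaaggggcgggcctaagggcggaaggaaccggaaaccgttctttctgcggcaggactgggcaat

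A RefSeq promoter of 300 bases was matched to 62 of the 78 genes. The RFX motif stood on either strand in 8 of 37 promoters of genes that followed Foxj1 (21.6%), in 2 of 8 of the genes in between, in 2 of 17 of the general genes (11.8%), and in 4.49% of 20267 promoters of genes in the files. The 8 were those of Cfap161, Cfap44, Cfap58, Cfap74, Cfap97d2, Dnah10, Spag8 and Tekt1. The forkhead motif stood in 1 of the 37 promoters (2.70%), in 0 of 8, in 2 of 17 and in 3.11% of all. The motifs cannot overlap each other, and 37 of the 20267 promoters held both. A match to these letters is a description and not a site of binding.

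The control section held 1888 spots over tissue with 20329126 counts (median of 9643.5 per spot, from 237 to 83152), and the metastatic section 1110 spots with 14657881 counts (median of 11334.5, from 162 to 77512). Levels are given as counts per 10000 counts of the same spots (CP10k). Airway was present in both sections: Scgb1a1, the main product of club cells, made up 15.2% of all counts in the control section and 18.4% in the metastatic section. Airway-rich spots were defined as the tenth of all spots highest in a summed list of 8 airway secretory genes, none of them a ciliary gene. There were 197 in the control section (10.4% of its spots) and 103 in the metastatic section (9.28%). A list of 11 genes of the 4T1 cells stood at 12.4 CP10k in the metastasis core, a cluster of 94 spots rebuilt here without the ciliary genes, and at 4.45 CP10k over 500 µm from it. Over whole sections the same list stood at 6.79 CP10k in the control and 5.92 CP10k in the metastatic section. It holds keratins that normal epithelium also expresses. It also holds cell cycle genes such as Mki67 and Top2a, which were counted 348 and 259 times in the control section. The sections share 858 spot barcodes, which are those of the array.

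Foxj1 was counted 850 times in the control section and 473 times in the metastatic section. In the control section 398 of 1888 spots had at least 1 Foxj1 count (21.1%, exact binomial interval 19.3 to 23.0), 151 had 2 or more, and the highest spot had 19. In the metastatic section 252 of 1110 spots had a count (22.7%, 20.3 to 25.3), 94 had 2 or more, and the highest had 11. The shares therefore overlapped within counting error. With every spot thinned to 5000 counts, which left out 362 and 82 shallower spots, they were 12.6% (10.96 to 14.4) and 10.8% (8.97 to 12.9), which is the opposite order and again within counting error. Of the airway-rich spots, 82.2% had a Foxj1 count in the control section and 83.5% in the metastatic section, and they held 67.1% and 54.5% of all Foxj1 counts. Spots with a Foxj1 count were deeper than the others, with medians of 13710.5 against 8856 counts in the control section and 15328.5 against 10430.5 in the metastatic section.

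Each gene was then asked whether it followed Foxj1 over the spots. Its Foxj1 ratio is the pooled CP10k in spots with a Foxj1 count over that in spots with none, computed in each section. A gene was called following where the ratio was at least 2 in each section with a lower bound over 1 in each, general where it was under 1.5 in both, and in between otherwise. Of the 77 genes besides Foxj1, 47 followed it, 21 were general and 9 lay in between. Among all 13791 features tested, 3.38% met the rule for following, 91.5% that for general and 5.14% lay in between. The ratio chose these groups, so its values within a group are a description. Among the 47, the median Foxj1 ratio was 6.42 in the control section (2.41 to 12.6) and 5.57 in the metastatic section (2.02 to 11.5). Among the 21, it was 1.02 (0.292 to 1.46) and 0.895 (0.206 to 1.17).

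The median over all features was below 1, at 0.640 in the control and 0.648 in the metastatic section. Scgb1a1, with ratios of 5.37 and 5.12, weighed on the totals of these spots. A ratio near 1 therefore lay above that of most features. Only 8.31% of all features had a ratio over 1 in both sections, against 62 of the 77 ciliary genes, 6 of them general. When haemoglobin, mitochondrial, surfactant protein, immunoglobulin and Scgb1a1 counts were left out of the spot totals, 53 genes followed Foxj1 and 9 were general. Thinning every spot to 5000 counts left 21 following genes, all among the 47, and 21 general ones. No share of all features is given under these settings, so these counts cannot be set against a background.

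**Figure D1:**
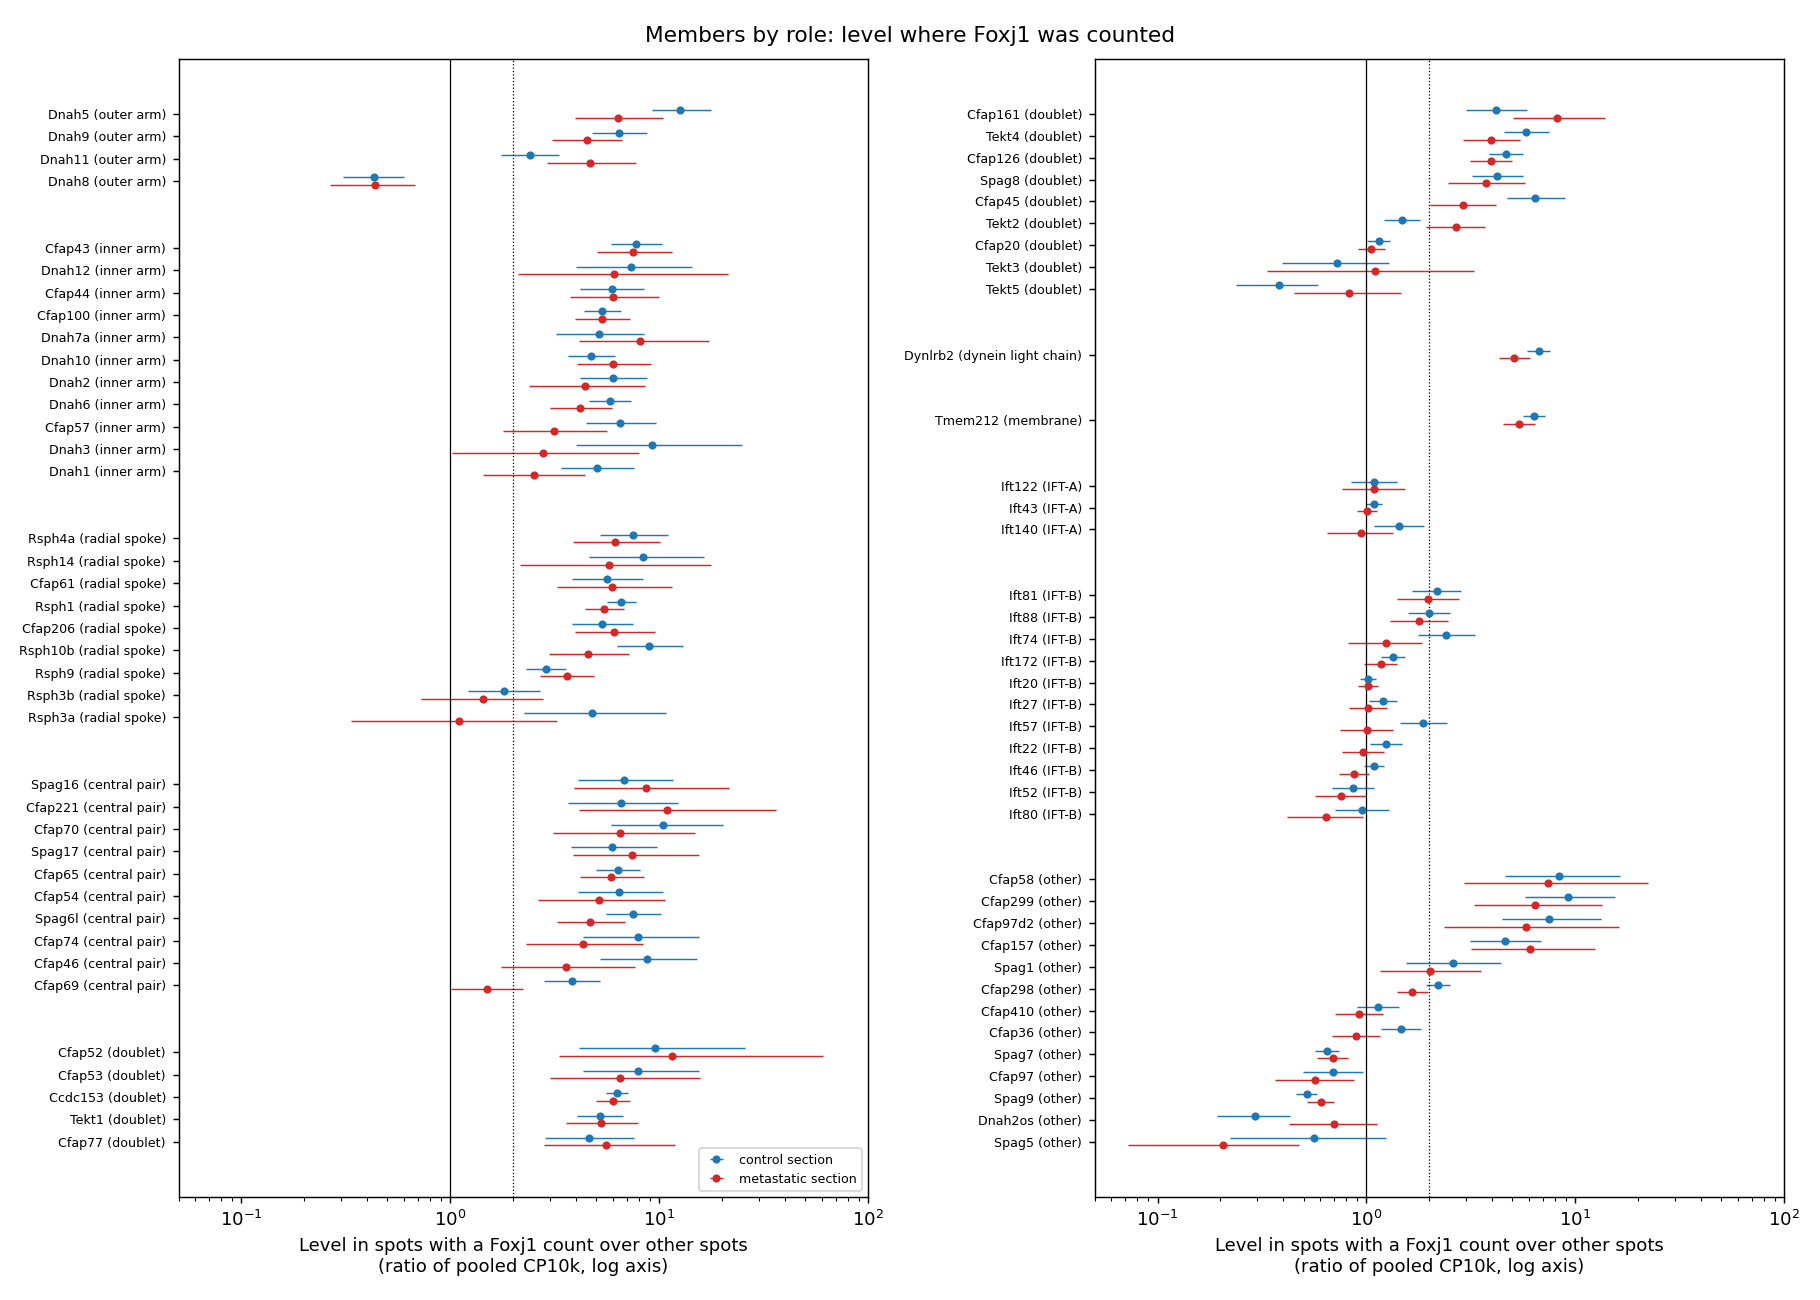
Foxj1 ratio of each ciliary gene besides Foxj1, grouped by role, on a log axis: pooled CP10k in spots with a Foxj1 count over spots with none, control section in blue and metastatic section in red, with 95% counting intervals. The solid line marks 1 and the dotted line 2. Dynein arm, radial spoke and central pair genes lie mostly to the right of 2 in both sections, and the IFT genes lie around 1.

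The outer dynein arm, which gives the stroke most of its power, was represented by 4 heavy chains, of which 3 followed Foxj1. Dnah5 stood at 0.422 CP10k in control spots with a Foxj1 count and 0.0334 CP10k in those with none, a ratio of 12.6 (9.20 to 17.6), the highest of all in that section. In the metastatic section the values were 0.155 and 0.0245 CP10k, a ratio of 6.33 (3.95 to 10.5). Dnah9 had ratios of 6.42 and 4.49, and Dnah11 had 2.41 (1.74 to 3.33) and 4.67 (2.90 to 7.71). Dnah8, the outer arm heavy chain known from the sperm tail, ran the other way, with 0.432 (0.306 to 0.598) and 0.434 (0.267 to 0.679). It was higher in the tenth of spots richest in markers of AT1 cells, the flat cells of the alveolus. There Dnah8 was 2.09 times (1.48 to 2.91) its level elsewhere in the control section and 1.87 times (1.07 to 3.08) in the metastatic section. In the tenth of spots richest in airway secretory genes it was 0.166 and 0.113 times the level elsewhere, on 10 and 4 counts.

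All 11 genes of the inner arms, which shape the bend, followed Foxj1. Cfap43 and Cfap44, which tether an inner arm to the doublet, had ratios of 7.77 and 7.53, and of 5.91 and 5.99, in the control and metastatic sections. Dnah12 had 7.33 and 6.07 on only 63 and 20 counts. Dnah1 was lowest of the 11 by its smaller ratio, with 5.04 (3.40 to 7.61) and 2.51 (1.43 to 4.43). Dnah7a (5.16 and 8.10) has near-identical copies in Dnah7b and Dnah7c, which fell below the count minimum, so how reads were divided among them is uncertain.

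Of the 9 radial spoke genes, 7 followed Foxj1 and none was general. Rsph4a, a protein of the spoke head, had ratios of 7.50 (5.20 to 11.04) and 6.15 (3.87 to 10.1). Rsph14 (8.38 and 5.73), Cfap61 (5.62 and 5.94) and Rsph1 (6.56 and 5.47) were alike. Rsph9, also of the spoke head, was lower at 2.88 (2.30 to 3.60) and 3.61 (2.70 to 4.87), with intervals that lay below those of Rsph1 in the control section and overlapped them in the metastatic section. The exceptions were the pair of stalk genes Rsph3a (4.76 and 1.10) and Rsph3b (1.81 and 1.43), close copies of each other whose counts cannot be separated with certainty. Rsph3a rested on 36 and 17 counts.

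The central pair followed in the same way, with 9 of 10 genes. Spag16 had ratios of 6.78 and 8.60, Cfap221 of 6.54 and 10.9, and Cfap70 of 10.5 and 6.48. Spag17 had 5.96 and 7.42, and Spag6l 7.47 and 4.66. The exception was Cfap69, at 3.81 (2.81 to 5.22) in the control section and 1.502 (1.00 to 2.23) in the metastatic section. In the metastasis core Cfap69 stood at 2.00 times (1.20 to 3.22) its level beyond 200 µm, on 23 counts, while no following gene had an interval above 1 there. The core held 1 Foxj1 count, so the choice of the groups favoured this difference.

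Of the 14 genes of the doublet microtubules and the structures bound to them, 10 followed Foxj1. Cfap52 had the highest smaller ratio, 9.57 (4.15 to 25.7) and 11.5 (3.32 to 61.1), on 39 and 20 counts, and Cfap53 had 7.93 and 6.52. Ccdc153, with 1400 and 611 counts, was measured far more closely at 6.28 (5.56 to 7.11) and 6.01 (4.99 to 7.26). The tektins, filament proteins of the doublet, divided: Tekt1 (5.19 and 5.25) and Tekt4 (5.82 and 3.95) followed, Tekt2 (1.48 and 2.67) lay in between, and Tekt3 (0.727 and 1.10) and Tekt5 (0.379 and 0.828) were general. Tekt3 rested on 66 and 17 counts. Tekt5 was 1.80 times (1.12 to 2.79) as high in AT1-rich spots as elsewhere in the control section and 3.25 times (1.61 to 6.07) in the metastatic section. Cfap20, of the inner junction of the doublet, was counted 1098 and 825 times. Its ratios were close to 1, at 1.14 (1.01 to 1.297) and 1.06 (0.912 to 1.22), the control one with an interval above 1.

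Tmem212, a membrane protein, and Dynlrb2, a roadblock-type dynein light chain, were with Ccdc153 the following genes with the most counts. Tmem212 stood at 1.62 and 0.256 CP10k in control spots with and without a Foxj1 count, and at 0.966 and 0.180 CP10k in the metastatic section, ratios of 6.35 (5.62 to 7.18) and 5.35 (4.49 to 6.40). Dynlrb2 stood at 1.58 and 0.237 CP10k, and at 1.01 and 0.199 CP10k, ratios of 6.67 (5.88 to 7.58) and 5.09 (4.30 to 6.04).

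No gene with an Ift symbol followed Foxj1. All 3 such genes of IFT-A were general: Ift122 had 1.09 and 1.08, Ift43 had 1.09 and 1.01, and Ift140 had 1.44 and 0.940. Of the 11 such genes of IFT-B 7 were general. Ift20, with 2403 and 1501 counts in 63.3% and 65.9% of spots, had a ratio of 1.02 in each section (0.932 to 1.11 and 0.912 to 1.13). The 4 in between were Ift81 (2.17 and 1.97), Ift88 (1.99 and 1.79), Ift74 (2.41 and 1.24) and Ift57 (1.88 and 1.01). Ift81 and Ift88 lay just outside the limit of 2, and their intervals, 1.40 to 2.77 and 1.29 to 2.47 in the metastatic section, lay above 1. Ift80 was lowest, at 0.957 and 0.641. No gene with an Ift symbol had an interval below 1 in both sections, against 57.6% of all features, and 9 of 14 had ratios over 1 in both.

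The 13 remaining genes share a name more than a structure, and 5 of them followed Foxj1. These were Cfap58 (8.38 and 7.42), Cfap299 (9.23 and 6.41), Cfap97d2 (7.50 and 5.78), Cfap157 (4.60 and 6.07) and, nearest the limit, Spag1 (2.60 and 2.02), a factor for the assembly of dynein arms. Cfap298, also an assembly factor, lay in between at 2.20 (1.92 to 2.52) and 1.65 (1.39 to 1.96). Spag9, a scaffold of JNK signalling, and Spag7 were lower where Foxj1 was counted, at 0.518 and 0.603 and at 0.650 and 0.689, which was near the median of all features. Together with Cfap97 and Dnah8 they were the ciliary genes with intervals below 1 in both sections.

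Spag5, a protein of the mitotic spindle, was lowest in the metastatic section, at 0.206 (0.0726 to 0.475). It was counted 38 times in the control section and 65 times in the metastatic section, where 34 of the counts fell in the metastasis core. In the tenth of metastatic spots richest in the 4T1 list it was 9.20 times (5.48 to 15.6) its level elsewhere, and 1.86 times (0.567 to 4.80) in the control section. That list holds cell cycle genes, and the part of dividing cells of any kind in these values was not tested.

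Dnah2 and its antisense transcript Dnah2os stood opposite each other. Dnah2, an inner arm heavy chain, had Foxj1 ratios of 5.98 (4.15 to 8.75) and 4.43 (2.39 to 8.57), and Dnah2os had 0.292 (0.192 to 0.429) and 0.703 (0.427 to 1.12). In control airway-rich spots Dnah2os was counted 2 times of 245. The strand setting of the counting is not given in the sources used here, so reads of the overlap of both genes could have been given to either. Their spot patterns nevertheless differed.

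The strength of the link of a gene to Foxj1 in single spots was low, as counts per spot were few. Over 1888 control spots, Pearson's r with Foxj1 on the log scale had a median of 0.243 among the 47 following genes (highest 0.486) and 0.0160 among the 21 general ones. Over 1110 metastatic spots the medians were 0.190 (highest 0.427) and 0.000785. The spots of a section share 1 library and both values of a spot share its depth. The same Foxj1 counts chose the groups, so a higher r among the following genes was built in and is a description.

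Foxj1 and airway content could not be separated at the scale of a spot. Within airway-rich spots alone, none of the 47 genes met the rule, with 35 control and 17 metastatic spots lacking a Foxj1 count. There the summed following genes were 1.61 times (1.48 to 1.76) as high in control spots with a Foxj1 count as in those without, and the airway secretory list was 1.71 times (1.68 to 1.75) as high. In the metastatic section the values were 1.25 (1.12 to 1.40) and 1.07 (1.04 to 1.10). Of the 47 genes, 42 had a ratio above 1 in the control section, against 38.9% of all features, and 34 in the metastatic section, against 39.7%. Intervals lay above 1 for 13 (1.53% of all features) and for 1 (0.363%). The 21 general genes summed to 1.25 (1.09 to 1.43) and 1.02 (0.874 to 1.20).

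Around the spots with 2 or more Foxj1 counts, the following genes declined with distance in both sections. Their sum was 21.4 CP10k in the 151 such control spots, 7.57 CP10k in adjacent spots (within 100 µm), 2.84 and 1.88 CP10k at up to 200 and 300 µm, and 1.65 CP10k beyond. In the metastatic section it was 12.2 CP10k in the 94 such spots and then 6.16, 2.94, 1.53 and 0.462 CP10k. Adjacent spots stood at 4.58 times (4.27 to 4.92) the level beyond 300 µm in the control section and 13.3 times (11.6 to 15.3) in the metastatic section. The larger metastatic value went with a lower level beyond 300 µm and not with a higher adjacent one. Spots of the metastasis core were not left out of these distances. The general genes showed no such decline and ranged from 6.94 to 7.76 CP10k and from 5.48 to 6.90 CP10k over the same distances. Both groups were chosen by their level in spots with a Foxj1 count, so this contrast was in part built in and is a description. The airway secretory list also declined, from 329.2 to 42.9 CP10k and from 193.2 to 20.6 CP10k. Its adjacent spots stood at 2.53 times the level beyond 300 µm in the control section and 5.81 times in the metastatic section. RNA that spread sideways before capture was not tested.

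**Figure D2:**
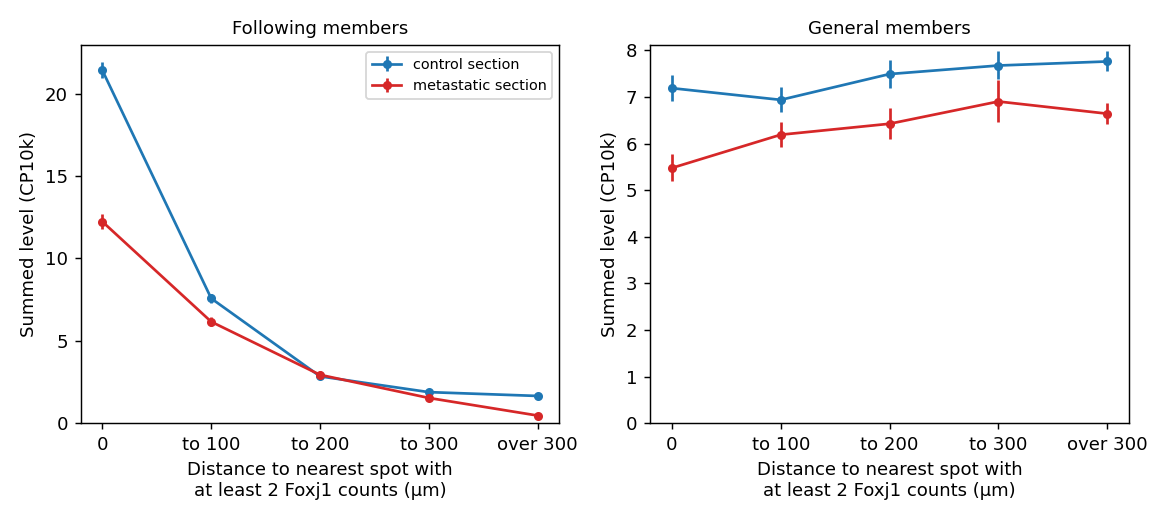
Summed level (CP10k, linear axis from 0) of the 47 following genes (left) and the 21 general genes (right) by distance in µm to the nearest spot with at least 2 Foxj1 counts, with 95% Poisson intervals. The following genes decline from 21.4 to 1.65 CP10k in the control section (blue) and from 12.2 to 0.462 CP10k in the metastatic section (red), while the general genes stay between 5.48 and 7.76 CP10k. Foxj1 counts of the same spots also chose both groups, so the contrast is in part built in.

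**Figure D3:**
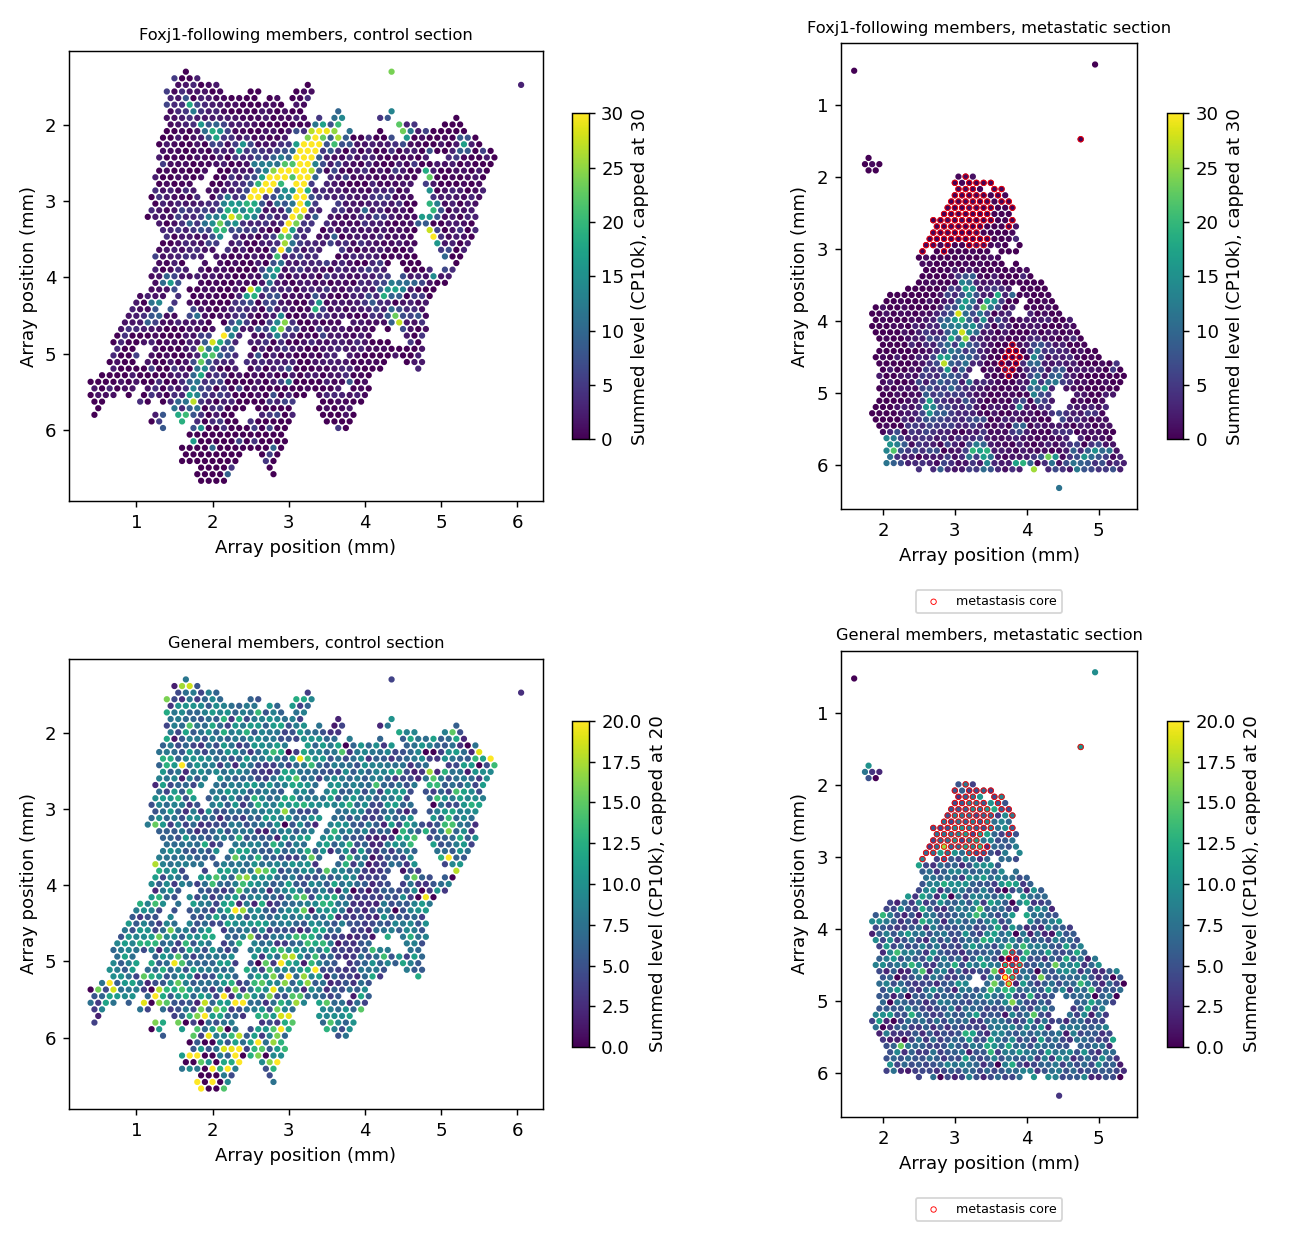
Summed level (CP10k, colour) of the following genes (top) and the general genes (bottom) in every spot, by position on the array in mm, control section left and metastatic section right, with the spots of the metastasis core ringed in red. The following genes trace branching bands that are brightest in the control section and are dark in the core, and the general genes cover both sections.

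Ciliary genes outside the chosen names divided along the same line. Of all features tested, 3.38% followed Foxj1 and 91.5% were general. Of 25 further axoneme genes 22 followed Foxj1, among them the intermediate chains Dnaic1 (3.12 and 3.67) and Dnaic2 (6.22 and 5.77), the central pair gene Hydin (5.70 and 3.81) and the ruler protein Ccdc39 (6.63 and 3.45). The general exception was Gas8 (1.36 and 1.24), a subunit of the nexin-dynein regulatory complex, whereas Drc1 of the same complex followed (5.58 and 4.53). Of 10 further genes of ciliated cells 8 followed, and Tppp3 (1.12 and 1.67) and Sec14l3 (1.07 and 1.55) lay in between. Of 10 dynein arm assembly genes besides Spag1, which is among the 47, 5 followed, and Ruvbl1, Ruvbl2 and Twistnb, which is better known as a subunit of RNA polymerase I, were general. Of 10 regulators and basal body genes 5 followed, namely Ccno, Myb, Trp73, Deup1 and Ccdc78. Of 26 further genes of IFT, its motors and the BBSome, only Wdr19 (2.22 and 2.14), a subunit of IFT-A, and Traf3ip1 (2.30 and 2.38), a subunit of IFT-B, followed and 17 were general. No marker of AT2, AT1 or mesothelial cells, macrophages or B cells followed. The rule was met by 4 of the 8 airway secretory genes and by 1 of the 5 smooth muscle genes, Cnn1 (3.87 and 2.80), while the other 4 smooth muscle genes lay in between.

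The 10 features outside these names with the highest smaller ratio were Gm16006, Dcdc2a, Sult1d1, Lrguk, Ccdc60, Ak9, Cdkl4, Calml3, 4833427G06Rik and Ccdc190. Their smaller ratios ran from 7.94 for Ccdc190 to 10.95 for Gm16006. Most were sparse, and only Sult1d1 (192 and 17 counts), 4833427G06Rik (235 and 105) and Ccdc190 (115 and 44) passed 100 counts in the control section.

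The ciliary genes were lower in the metastatic section. Over all spots those that followed Foxj1 had a lower section ratio than the general ones, an order that depended on which spots were counted. The 47 summed to 6.33 CP10k (6.22 to 6.44) in the control and 4.29 CP10k (4.19 to 4.40) in the metastatic section, a section ratio (metastatic over control) of 0.678 (0.658 to 0.699). The 21 general genes summed to 7.46 and 6.33 CP10k, a ratio of 0.849 (0.827 to 0.871), the genes in between had 0.818 (0.768 to 0.872), and Foxj1 went from 0.418 to 0.323 CP10k, a ratio of 0.772 (0.688 to 0.865). The median over all features was 0.951. Over spots more than 200 µm from the metastasis core the following and general genes did not differ beyond counting error, at 0.825 (0.7998 to 0.850) and 0.830 (0.807 to 0.853). Fewer ciliated cells in the section and less RNA per cell cannot be told apart in such spots. Tmem212, Ccdc153, Dynlrb2 and Rsph1 gave 1419, 1400, 1364 and 868 of the 12868 control counts of the 47, so a sum leans on these 4.

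Markers of other cell types were also lower, some of them more so. Over all spots the section ratio was 0.552 for the list of AT2 cells, which make surfactant, 0.613 for that of AT1 cells, 0.622 for B cells, 0.393 for smooth muscle and 0.420 for mesothelial cells, and it was 2.79 for macrophages. Their part in the ciliary values was not tested.

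Gene by gene, 45 of the 47 following genes had a section ratio below 1, as did 58.1% of all features. The interval lay below 1 for 31 of them (33.4% of all features) and above 1 for none (22.0%). By at least 1.5-fold, 22 were lower (12.0% of all features) and 0 were higher (8.96%). Dnah5 was lowest, with 0.159 CP10k in the control and 0.0675 CP10k in the metastatic section, a ratio of 0.425 (0.336 to 0.534). Cfap97d2 (0.430), Dnah12 (0.440) and Dnah2 (0.448) came next, with intervals that overlapped that of Dnah5. At the other end stood Spag1 (1.19), Cfap74 (1.04), Cfap206 (0.894) and Cfap126 (0.887), whose intervals all reached 1. Of the named markers, Ccdc153 had 0.605 (0.550 to 0.666), Tmem212 0.630 (0.573 to 0.692) and Dynlrb2 0.697 (0.634 to 0.764).

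Among the general genes 12 of 21 had section intervals below 1, against 33.4% of all features. The lowest were Tekt3 (0.357), Tekt5 (0.528), Dnah2os (0.549) and Ift46 (0.663, 0.605 to 0.727). The highest were Cfap20 (1.04), Cfap410 (1.11), Cfap36 (1.12) and Spag5, the single general gene with an interval above 1, at 2.37 (1.57 to 3.64). Tekt5 and Dnah8 were higher in the spots richest in AT1 markers, which were themselves lower in the metastatic section, and their part in the values of both genes was not tested.

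**Figure D4:**
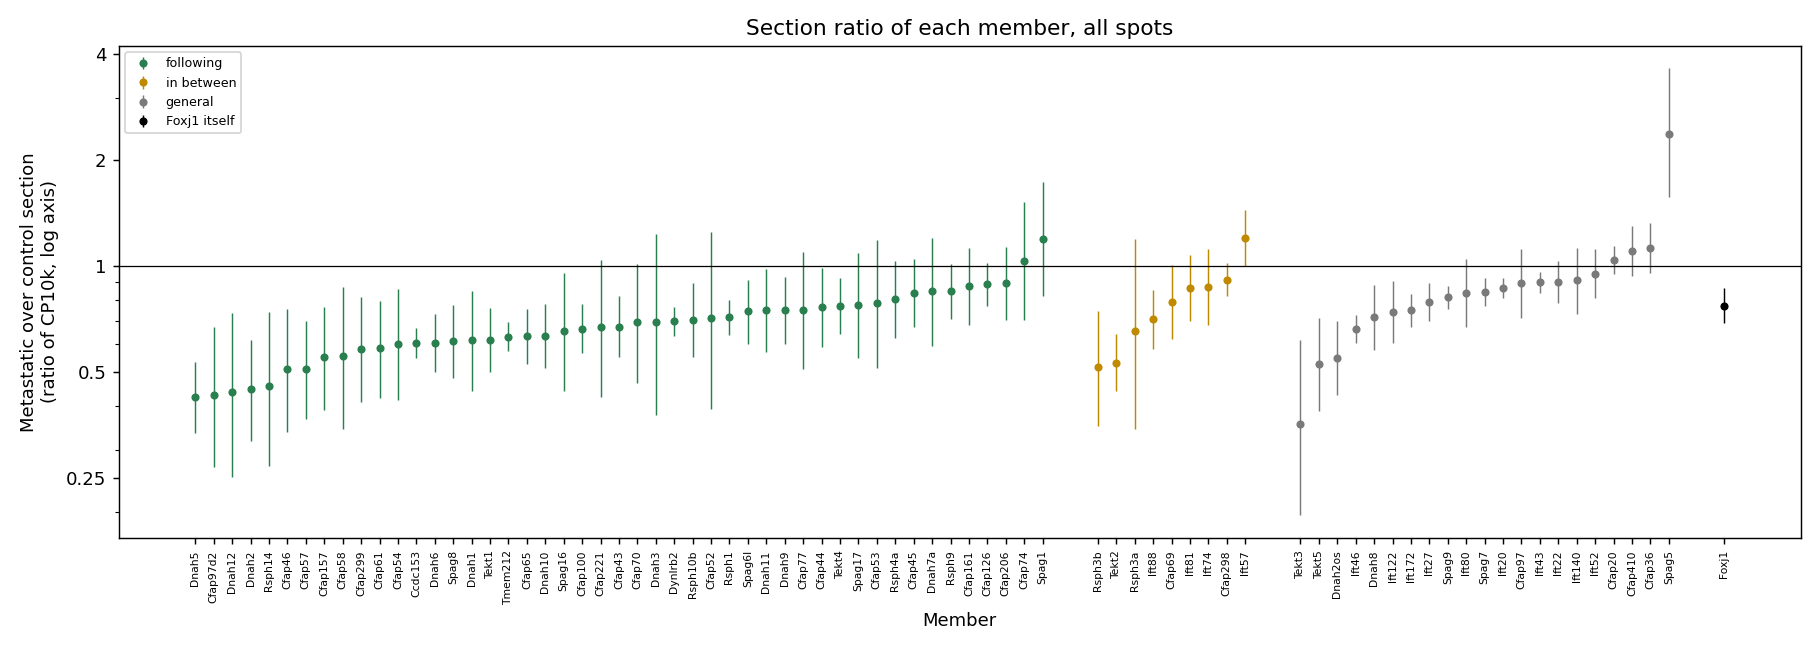
Section ratio (metastatic over control CP10k, log axis, all spots) of each ciliary gene, ordered within the following, in between and general groups, with Foxj1 at the right and 95% counting intervals. Of the 47 following genes 45 lie below 1, from 0.425 for Dnah5, and Spag5 stands alone at 2.37.

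The section difference was larger in the airway-rich spots. There the following genes summed to 22.2 CP10k in the control and 12.9 CP10k in the metastatic section, a ratio of 0.580 (0.558 to 0.602). The ratio was 0.888 (0.844 to 0.934) in all other spots, and its interval did not overlap that of the airway-rich spots. Foxj1 had 0.619 (0.532 to 0.718) and 1.07 (0.891 to 1.28), and the general genes 0.767 (0.722 to 0.816) and 0.868 (0.844 to 0.893). In airway-rich spots 32 of the 47 following genes were lower by at least 1.5-fold (16.7% of all features), and 36 had an interval below 1 (12.8%) and 0 one above 1 (8.26%).

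The secretory transcripts were divided. The airway secretory list as a sum had a section ratio of 0.639 (0.633 to 0.646) in airway-rich spots and 0.787 (0.782 to 0.793) over all spots. Over all spots Scgb3a1 (0.0161), Bpifa1 (0.00272) and Bpifb1 (0.0251) were nearly gone from the metastatic section and Scgb3a2 (0.695) was lower. Aldh1a1 was at 0.932, and the club cell genes Cyp2f2 (1.06) and Cbr2 (1.08) and the detoxifying enzyme Gsta3 (1.63) were higher. Per count of that list, the following genes had a ratio of 0.862 (0.836 to 0.888) and Foxj1 one of 0.980 (0.874 to 1.10), whose interval covered 1. Per count of Foxj1, the following genes had 0.879 (0.853 to 0.906). That interval takes the 850 and 473 Foxj1 counts as fixed, so it leaves out their counting error and is too narrow. The denominator mattered: per count of Scgb1a1, which was higher in the metastatic section at 1.20, the following genes had 0.563 (0.546 to 0.580), and per count of the list without Scgb3a1 and Bpifa1 they had 0.709 (0.688 to 0.731). By these denominators Foxj1 had 0.641 (0.571 to 0.718) and 0.807 (0.720 to 0.904), both below 1.

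The airway-rich spots of the sections differed in Scgb3a1 and Bpifa1. In the control section 47 spots, all airway-rich, had at least 100 CP10k of Scgb3a1 and Bpifa1, secretory genes known from large airways, and the highest reached 709.2 CP10k. In the metastatic section no spot did, and the highest was 44.2 CP10k. With 1 section each, another level of the airway in the section and loss of these transcripts cannot be told apart. This division was chosen after its values were seen. The 47 spots held 25.2% of the control counts of the following genes and 25.9% of those of Foxj1. In them the following genes summed to 32.8 CP10k, against 18.7 CP10k in the other 150 control airway-rich spots, a ratio of 1.75 (1.68 to 1.83). Intervals lay above 1 for 27 of the 47 genes (8.86% of all features) and below 1 for 0 (5.23%), with Dnah5 at 2.38 (1.85 to 3.05) and Foxj1 at 1.94 (1.63 to 2.31). The rise was not particular to them. The general genes stood at 1.31 (1.21 to 1.42) and the smooth muscle genes at 1.65 (1.57 to 1.74). The secretory list without Scgb3a1 and Bpifa1 stood at 1.56 (1.54 to 1.58).

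Against those other 150 control spots, the metastatic airway-rich spots had a ratio of 0.686 (0.658 to 0.715) for the following genes, 0.826 (0.773 to 0.882) for the general genes and 0.761 (0.646 to 0.897) for Foxj1. Of the 47 genes, 44 were below 1, against 49.5% of all features, and 23 had an interval below 1 (9.64%) and 0 one above 1 (6.11%). Dnah5 was at 0.482 (0.359 to 0.643), Ccdc153 at 0.604 (0.530 to 0.687), Tmem212 at 0.658 (0.580 to 0.747) and Dynlrb2 at 0.674 (0.594 to 0.763). The secretory list without Scgb3a1 and Bpifa1 was level between these spots at 0.991 (0.981 to 1.00). Its genes belong to the list that chose the airway-rich spots by 1 limit in both sections, so this level was in part set by that choice. The 5 smooth muscle genes listed, whose cells wrap larger airways and vessels, stood at 0.275 (0.257 to 0.293). Without the 47 spots, the section ratio of the following genes over all spots was 0.863 (0.835 to 0.891) and that of the general genes 0.856 (0.834 to 0.879). The following genes were then no longer the lower. These spots lay in the control section alone and were high in the following genes, so leaving them out raised the ratio of those genes by construction. The part of airway size in the difference that remained was not tested.

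**Figure D5:**
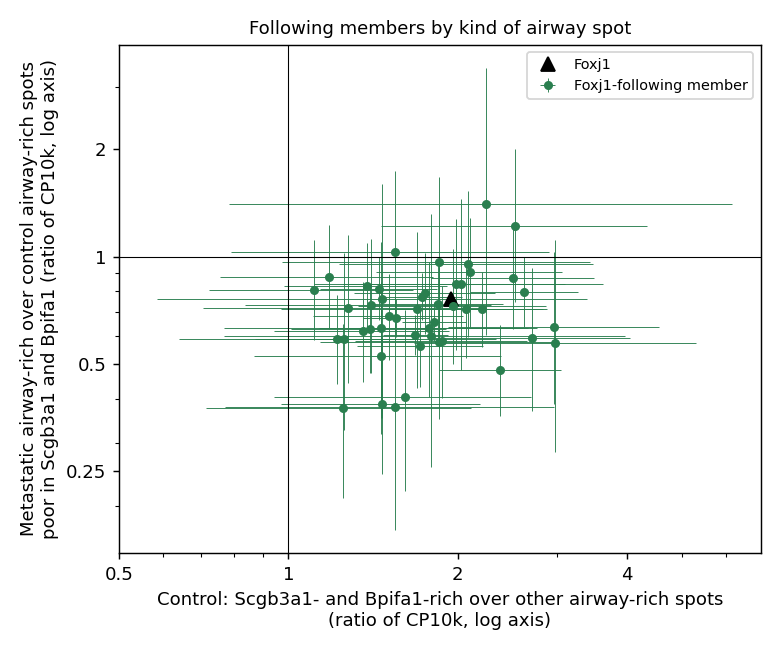
Each of the 47 following genes (green, 95% counting intervals) and Foxj1 (black triangle) by its ratio between control airway-rich spots rich and poor in Scgb3a1 and Bpifa1 (horizontal, log axis) and its ratio between metastatic airway-rich spots and the poor control ones (vertical, log axis). All 47 lie to the right of 1, and 44 lie below 1.

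Within the metastatic section the following genes were nearly absent from the metastasis core. They summed to 0.195 CP10k (0.134 to 0.274) in its 94 spots, 0.963 CP10k within 100 to 200 µm of it, 3.66 CP10k at 300 to 500 µm and 5.52 CP10k (5.37 to 5.66) beyond 500 µm. The general genes changed far less over the same zones, at 6.70 (6.32 to 7.10), 7.17, 6.73 and 6.09 CP10k (5.93 to 6.24). They were lowest beyond 500 µm, with an interval below those of the nearer zones. No airway-rich spot lay in the core, 1 lay within 200 µm, 11 lay at 300 to 500 µm and 91 lay beyond, so the distance to airway and to the core changed together. Of the 94 core spots 1 had a Foxj1 count, so core counts mostly entered the denominator of the ratio that chose the groups. The low core level of the following genes, and its contrast with the general genes, was therefore in part set by that choice. Foxj1 was counted 1 time in the core and 458 times beyond 200 µm, a ratio of 0.0152 (0.000384 to 0.0852). Of the 47 following genes, 30 had no core count, against 5.79% of all features, and 38 had an interval below 1 against spots beyond 200 µm (24.9%). Tmem212 had 0 core counts and 633 beyond, with an upper bound of 0.0407 for its ratio, and Cfap126 had 0 and 339, with an upper bound of 0.0763. Spag1 was the exception, with 8 core counts and a ratio of 1.21 (0.494 to 2.59).

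Among the general genes 5 had intervals above 1 in the core (34.7% of all features): Spag5 at 11.8 (6.63 to 21.7), Ift22 at 1.55 (1.15 to 2.07), Ift52 at 1.47 (1.02 to 2.07), Spag7 at 1.46 (1.18 to 1.79) and Ift27 at 1.35 (1.01 to 1.78). Their median, 1.10, was close to the 1.07 of all features. Intervals lay below 1 for 3 (24.9% of all features), namely Ift172 (0.695, 0.498 to 0.949), Tekt5 (1 core count) and Dnah2os. The last had 0 core counts against 89 beyond 200 µm, with an upper bound of 0.295 for its ratio. Of the genes in between, Ift74 (2.35, 1.43 to 3.75) was higher in the core with Cfap69, and Tekt2 (1 core count of 156) and Cfap298 (0.680, 0.493 to 0.918) were lower.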

How the data were processed

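Visium counts of 1 control and 1 metastatic lung section were analysed. The authors made the deposited counts (molecules of each gene in each spot over tissue, not normalized) with Space Ranger 1.3.1 on mm10, per the labels. Groups followed the sample titles. The tools were Python 3.11.15, scipy 1.17.1 for intervals, scikit-learn 1.9.0 for clusters, matplotlib 3.10.9 for plots, numpy 2.4.6 and pandas 2.3.3. Counts were summed over spots and divided by the spot totals per 10000, without a filter on spots. Exact Poisson intervals were used for levels and exact binomial intervals (Clopper-Pearson) of the split of counts for ratios. For a count of 0 in the core, the upper bound of the ratio is given. Since a spot of median depth holds about 1 count of a gene at 1 CP10k, genes were described by sums. Doublets do not apply to spots. The metastasis core was the k-means cluster (5 clusters, 2000 variable genes, 20 principal components, seed 11) highest in the 4T1 list and is not the region map of the study. The airway-rich limit was 152.7 CP10k, the 90th percentile of both sections.

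The genes, lists and thresholds were chosen with earlier results of these data known. Besides Foxj1, Tmem212, Dynlrb2 and Ccdc153, the genes named were, within each role, the 3 highest and the lowest by the smaller Foxj1 ratio, the 4 highest and 4 lowest section ratios among following and general genes, and the 10 highest features outside the names. Other genes named were chosen after their values were seen. Scripts were tested on simulated data. For promoters the first RefSeq entry of each gene was used and 5826 further starts were left out. Alternatives were other Foxj1 limits, the ciliated list in place of Foxj1, thinning to 5000 counts, airway-rich spots alone, a minimum of 200 counts, spot totals without 422 abundant genes, spots away from the core, means over spots and other airway limits. Those without the Scgb3a1 and Bpifa1 spots or genes, and with a shorter ciliated list, were chosen after seeing the data.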

Additional observations from a re-analysis of the deposited data

How the results depend on the processing

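No section ratio crossed 1, but the order of the following and general genes did not hold throughout: their ratios, 0.678 and 0.849 over all spots, were 0.825 and 0.830 over spots more than 200 µm from the metastasis core and 0.863 and 0.856 without the spots rich in Scgb3a1 and Bpifa1. Each of these settings left out spots of 1 section only, poor in the following genes near the core and rich in them in the latter, which raises their ratio by construction. The share of spots with a Foxj1 count, 21.1% in the control and 22.7% in the metastatic section, was 12.6% and 10.8% after thinning. No paired analysis was possible because each condition had 1 section. As means over spots the ratios of the following and general genes were 0.723 and 0.808. In airway-rich spots the ratio of the following genes, 0.580, was 0.628 with spot totals without abundant genes, 0.613 as a mean over spots, 0.686 without the Scgb3a1 and Bpifa1 spots, 0.505 and 0.546 with the 95th and 80th percentile as the limit and 0.552 with Scgb1a1 alone. Per airway secretory count their ratio, 0.862, was 0.805 after thinning, 0.563 per Scgb1a1 count and 0.709 per count of the list without Scgb3a1 and Bpifa1. Adjacent over far control spots, 4.58, became 2.44 around spots with at least 1 Foxj1 count. The 47 following genes became 21 after thinning, 0 in airway-rich spots alone and 26 of 52 at a minimum of 200 counts, and the 21 general genes became 9 with totals without abundant genes. All 21 and all 26 were among the 47. Spots chosen by the ciliated list gave 50 following genes, and no share of all features is given beside these counts. The causes were not tested, apart from thinning and the higher minimum, which leave fewer counts or genes. Depth limits single genes: at 20 to 60 counts a section, the intervals of a ratio span several-fold.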
